A study of Rattus norvegicus with 6 samples.

Results

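The miR-199a, miR-214 and miR-3120 group is a small set of miRNAs that lie together in the genome and are best known from fibroblasts and other mesenchymal cells. Its members were taken by name: every row of the deposited count table with the stem miR-199a, miR-214 or miR-3120, alone or with a strand suffix. These were 5 of the 650 listed mature miRNAs: rno-miR-199a-3p, rno-miR-199a-5p, rno-miR-214-3p, rno-miR-214-5p and rno-miR-3120, where rno stands for the rat and is left out below. Small RNA had been sequenced from the whole trigeminal ganglion, which holds the sensory neurons of the face. The ganglia came from the side of the operation in Sprague-Dawley rats aged 8 to 10 weeks. In the CCI-ION group (chronic constriction injury of the infraorbital nerve, 3 libraries) the left infraorbital nerve was exposed and tied loosely with silk ligatures. In the sham group (3 libraries) the nerve was exposed in the same way and not tied. Ganglia of both groups were taken on day 14. Nothing in the labels ties each library to an animal of its own, so p-values describe only how these libraries vary, which may be technical. The labels do not give the sex of the rats.

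In human and mouse, miR-199a and miR-214 are cut from a long noncoding transcript that runs antisense within the gene of dynamin 3 (Dnm3), and that transcript is under the control of the mesenchymal transcription factor Twist1. miR-3120 is cut from the opposite strand of the miR-214 hairpin, in the sense direction of Dnm3, and so is a mirror miRNA. A miRNA guides silencing proteins to messenger RNAs that pair with its seed, bases 2 to 8, so that strands of the same hairpin with different seeds have different targets.

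All 5 members were found in the RefSeq miRNA table (build GRCr8), with the same letters as in the deposited table. The sequences are shown 5′ to 3′ with the seed in capitals, because the seeds set the members apart.
miR-199a-3p: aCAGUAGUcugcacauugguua
miR-199a-5p: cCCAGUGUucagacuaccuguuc
miR-214-3p: aCAGCAGGcacagacaggcag
miR-214-5p: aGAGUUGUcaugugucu
miR-3120: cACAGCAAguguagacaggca
The seeds of the 5 members all differ, and no other row of the 650 had the seed of a member. Nor was any other row within 2 mismatches of a member over an overlap of 19 or more bases. The sequences of miR-214-3p and miR-3120 resemble each other: with a shift of 1 base they differed at 4 of 20 compared bases.

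The members lie on rat chromosome 13 within the span of Dnm3, which is on the minus strand. In GRCr8, miR-199a-5p maps to chr13:77116255-77116277 and miR-199a-3p to chr13:77116294-77116315, both on the plus strand in the hairpin gene Mir199a2. Between miR-199a-3p and the Mir214 hairpin lie 5329 bases, and that hairpin spans chr13:77121645-77121752 on the plus strand. miR-214-5p is at chr13:77121656-77121672 and miR-214-3p at chr13:77121713-77121733. miR-3120 maps to chr13:77121672-77121692 on the minus strand, which is the strand of Dnm3. The Mir214 and Mir3120 hairpins overlap over 106 bases, and the overlap is complementary at 106 of them. The Mir214 hairpin is shown with the bases antisense to miR-3120 in capitals, because the position of this stretch bears on how the miR-214-5p row is read.
Mir214 hairpin: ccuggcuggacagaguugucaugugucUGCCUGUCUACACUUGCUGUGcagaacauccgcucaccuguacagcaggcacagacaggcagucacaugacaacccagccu
The listed miR-214-5p covers bases 12 to 28 of this hairpin, the stretch antisense to miR-3120 covers bases 28 to 48, and miR-214-3p covers bases 69 to 89. In mouse and human the strand named miR-214-5p lies over the stretch shown in capitals. None of the 650 listed sequences held that stretch (0 of 650), so the table has no row for it.

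**Figure D1:**
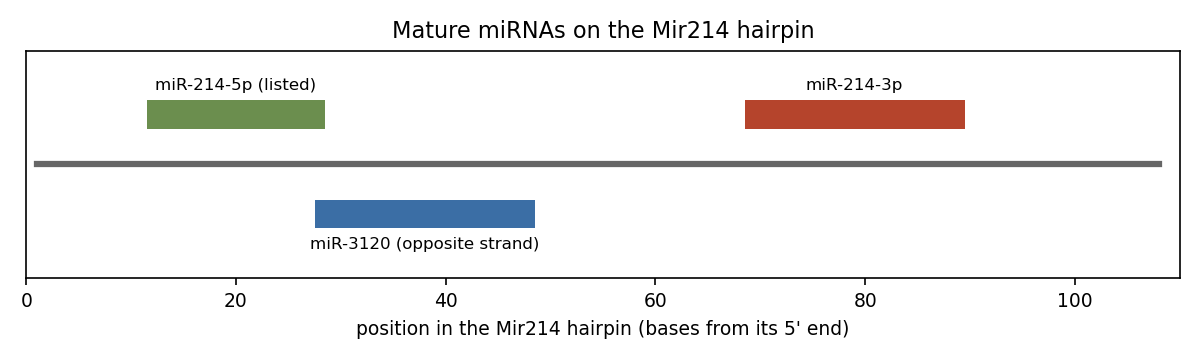
Positions of the mature miRNAs on the 108-base Mir214 hairpin, in bases from its 5′ end; bars above the line are on the strand of the hairpin and the bar below is on the opposite strand. The listed miR-214-5p (bases 12 to 28) and the stretch opposite miR-3120 (bases 28 to 48) share 1 base, and miR-214-3p (bases 69 to 89) lies in the other arm.

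The 5 members differed widely in abundance, and the miR-199a strands held nearly all of their counts. Of the counts of all 5 members over the 6 libraries, miR-199a-3p held 81.2%, miR-199a-5p 18.5%, miR-214-3p 0.196% and miR-3120 0.0961%. The total miRNA counts ranged from 6420434 to 11014970 in CCI-ION libraries and from 10084327 to 12560545 in sham libraries. Both libraries numbered 1 stood apart from the other 4 in depth: the totals behind their deposited RPM values (read counts scaled to a wider total) were 24259518 in CCI-ION and 24025572 in sham, against 13793797 to 15228984. Levels are given as CPM, counts relative to the library's miRNA total after scaling by TMM factors, for mature miRNAs of 17 to 23 bases. The adapters of small RNA libraries can join different sequences with different success, so an order of levels between miRNAs is an order of what was sequenced, and the part of this in the order was not tested.

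rno-miR-199a-3p, which represses mTOR and MET in human liver cancer cells, ranked 21 to 32 among the 650 rows in CCI-ION libraries and 24 to 31 in sham libraries. Its level was 6481, 8638 and 4610 CPM in CCI-ION libraries 1 to 3, against 5169, 6139 and 4589 CPM in sham libraries 1 to 3. The groups overlapped: CCI-ION library 2 was highest, and CCI-ION library 3 stood level with sham library 3, the lowest. In human and mouse, miR-199b-3p has the same sequence and miR-199a is also cut from a further hairpin. Counts of miR-199a-3p, and through the further hairpin those of miR-199a-5p, may therefore come from more than the hairpin near Mir214. These sources cannot be told apart in the table, so the ratio of the strands may mix hairpins.

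rno-miR-199a-5p, the partner strand, lowers caveolin-1 in human lung fibroblasts. Its level was 1787, 1811 and 964 CPM in CCI-ION libraries 1 to 3, against 1410, 1062 and 859 CPM in sham libraries 1 to 3. CCI-ION libraries 1 and 2 stood above all sham libraries, while CCI-ION library 3 lay among them.

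rno-miR-214-3p, which represses the chromatin enzyme Ezh2 in mouse muscle, was a rare miRNA here. It had 242, 100 and 64 counts in CCI-ION libraries 1 to 3 and 216, 101 and 94 counts in sham libraries 1 to 3. Its level was 20.9, 16.1 and 8.61 CPM in CCI-ION libraries, against 16.2, 10.3 and 9.44 CPM in sham libraries. The groups overlapped, with the highest and the lowest value both in CCI-ION libraries.

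rno-miR-3120 has been tied, in mammalian cells, to proteins that strip clathrin from vesicles, a process next to that of its host gene product dynamin. It had 101, 66 and 32 counts in CCI-ION libraries 1 to 3 and 103, 57 and 41 counts in sham libraries 1 to 3. Its level was 8.71, 10.6 and 4.30 CPM in CCI-ION libraries, against 7.74, 5.80 and 4.12 CPM in sham libraries. The lowest count, 32, has an exact Poisson interval of 21.9 to 45.2 at 95%, which covers counting error only, since the deposited values carry no molecular identifiers.

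miR-214-5p as listed was read 1 time, in sham library 1, and had 0 counts in the other 5 libraries. At 3 counts, the floor used here, a miRNA would stand at 0.272 to 0.467 CPM in CCI-ION libraries and at 0.239 to 0.297 CPM in sham libraries. The listed sequence was under this floor in all 6 libraries, so it counts as not detected and no fold is given. The stretch that carries this name in mouse and human has no row, so these counts do not give its level. The other 4 members were above 10 counts in all 6 libraries.

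The order miR-199a-3p, miR-199a-5p, miR-214-3p, miR-3120 was the same in 6 of 6 libraries. Within a library, miR-199a-3p was 3.63 to 5.78 times miR-199a-5p, miR-199a-5p was 85.7 to 112.6 times miR-214-3p, and miR-214-3p was 1.52 to 2.396 times miR-3120. These values are a description, with no test, since the order was read from the same levels. Across libraries the CPM ranges of miR-214-3p and miR-3120 overlapped, although within each library miR-214-3p was the higher of these neighbours in the order.

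**Figure D2:**
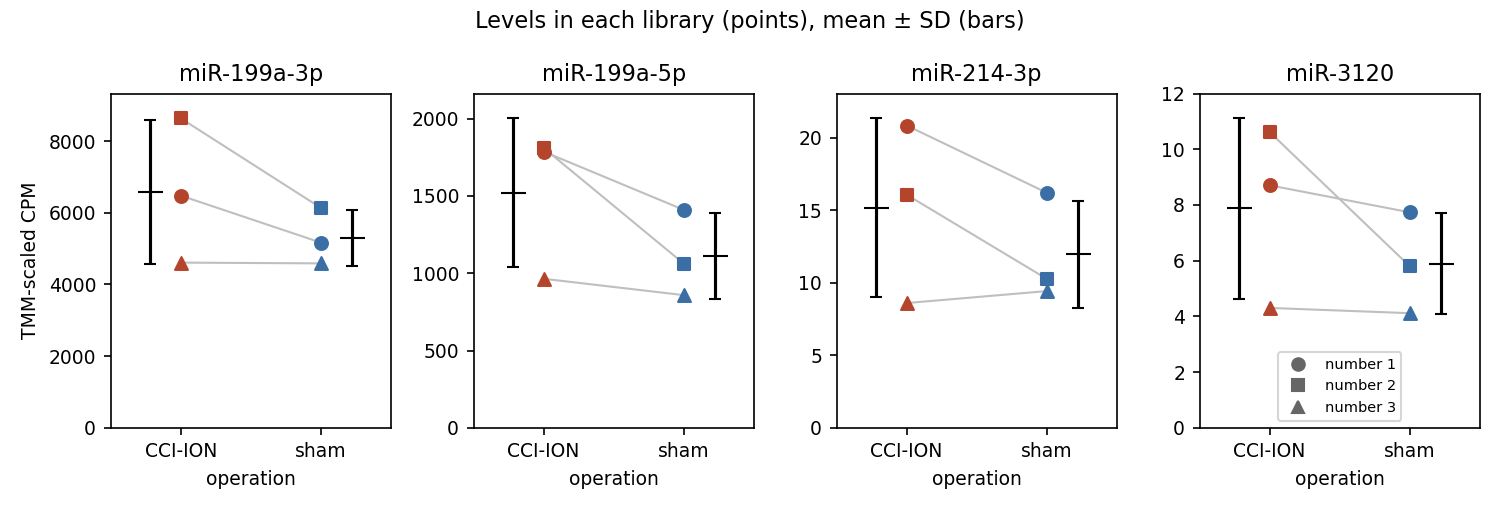
TMM-scaled CPM (vertical axes, from 0) of the 4 members that passed the filter on low counts, with CCI-ION libraries on the left and sham libraries on the right of each panel. Points are libraries, grey lines join libraries with the same number, and black bars are mean ± SD of 3 libraries. In each panel the groups overlap, and CCI-ION library 3 lies close to the sham libraries.

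The design sets ganglia of CCI-ION rats beside those of sham rats to find miRNAs that change with the nerve injury. With the groups compared alone, no member changed past the threshold, although all 4 tested members had higher means in CCI-ION. miR-199a-5p averaged 1521 ± 482 CPM in CCI-ION and 1110 ± 279 CPM in sham (SD, n = 3 each). Its log2 fold change was 0.45 ± 0.29 (SE), with an edgeR adjusted p of 0.776. miR-199a-3p averaged 6576 ± 2016 CPM in CCI-ION and 5299 ± 783 CPM in sham, a log2 fold change of 0.31 ± 0.24 (edgeR adjusted p = 0.833). For miR-214-3p the means were 15.2 ± 6.18 CPM in CCI-ION and 11.98 ± 3.70 CPM in sham (log2 fold change 0.34 ± 0.36, edgeR adjusted p = 0.899). For miR-3120 they were 7.88 ± 3.24 CPM in CCI-ION and 5.88 ± 1.81 CPM in sham (log2 fold change 0.41 ± 0.38, edgeR adjusted p = 0.899).

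The filter on low counts kept 4 of the 5 members among 463 tested miRNAs. Of all tested miRNAs edgeR called 0.648%, and of the members 0 of 4. At an unadjusted edgeR p under 0.05 stood 46 of all 463 and 0 of the 4 members, which are too few to set apart from that share. With the groups alone DESeq2 called 1.94% of the 463 and limma-voom 0.648%, and each called 0 of the 4 members. The median log2 fold change of the 4 members was 0.38, against 0.01 over all 463, and 51.2% of all 463 had a positive value. The intervals at 95% left room for a fall as well as for a sizeable rise. They ran from 0.859 to 2.18 times the sham level for miR-199a-5p and from 0.843 to 1.83 times for miR-199a-3p. For miR-214-3p they ran from 0.709 to 2.27 times and for miR-3120 from 0.713 to 2.48 times.

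Libraries with the same number deviated together. What a number stands for is not given, and the pairing was read from the same data that the block tests. When the number was taken into account as a pair block, edgeR called miR-199a-5p higher in CCI-ION. Its log2 fold change with the block was 0.43 ± 0.11 (edgeR adjusted p = 0.00383), and it was higher in CCI-ION in 3 of 3 pairs, at 1.27, 1.70 and 1.12 times the sham library of the same number. With the block edgeR called 11.7% of all 463 miRNAs, 6.05% as higher, and 20.1% of all 463 had a higher CPM in CCI-ION in 3 of 3 pairs. The call of miR-199a-5p was shared by DESeq2 with the block (adjusted p = 0.0139), which called 5.62% of the 463 as higher. It was not made by limma-voom with the block (adjusted p = 0.0864), which called 4.75% as higher. It was lost when either both libraries numbered 1 (edgeR adjusted p = 0.0575), both numbered 2 (0.156) or both numbered 3 (0.164) were left out.

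The other 3 tested members were not called with the block. miR-199a-3p had a log2 fold change of 0.28 ± 0.10 (edgeR adjusted p = 0.0592), with CCI-ION libraries at 1.25, 1.41 and 1.00 times the sham library of the same number. miR-3120 stood at 1.13, 1.83 and 1.05 times the paired sham library (0.38 ± 0.25, edgeR adjusted p = 0.368). miR-214-3p stood at 1.29, 1.56 and 0.912 times (0.31 ± 0.20, edgeR adjusted p = 0.358). All 4 members had their largest ratio in the pair numbered 2.

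The direction for miR-199a-3p and miR-214-3p depended on the scale. Deposited RPM values refer to a larger total, of which miRNA counts made up 49.0% ± 5.87 in CCI-ION and 61.8% ± 8.25 in sham (SD, n = 3 each). On that scale miR-199a-3p averaged 3139 ± 675 RPM in CCI-ION and 3281 ± 593 RPM in sham (two-sided exact permutation p = 0.8). miR-199a-5p averaged 726.0 ± 180.4 RPM in CCI-ION and 677.2 ± 108.6 RPM in sham (exact permutation p = 0.7). miR-214-3p averaged 7.25 ± 2.67 RPM in CCI-ION and 7.28 ± 1.4995 RPM in sham (exact permutation p = 1), and miR-3120 averaged 3.73 ± 1.25 RPM in CCI-ION and 3.58 ± 0.803 RPM in sham (exact permutation p = 0.8). With this scaling the median log2 fold change of all 463 miRNAs was -0.34, and the members stood at 0.27 (miR-199a-3p), 0.44 (miR-199a-5p), 0.34 (miR-214-3p) and 0.40 (miR-3120) above it. With the block on this scale, miR-199a-5p was not called (log2 fold change 0.080 ± 0.16, edgeR adjusted p = 0.704), where 1.3% of the 463 were called higher.

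**Figure D3:**
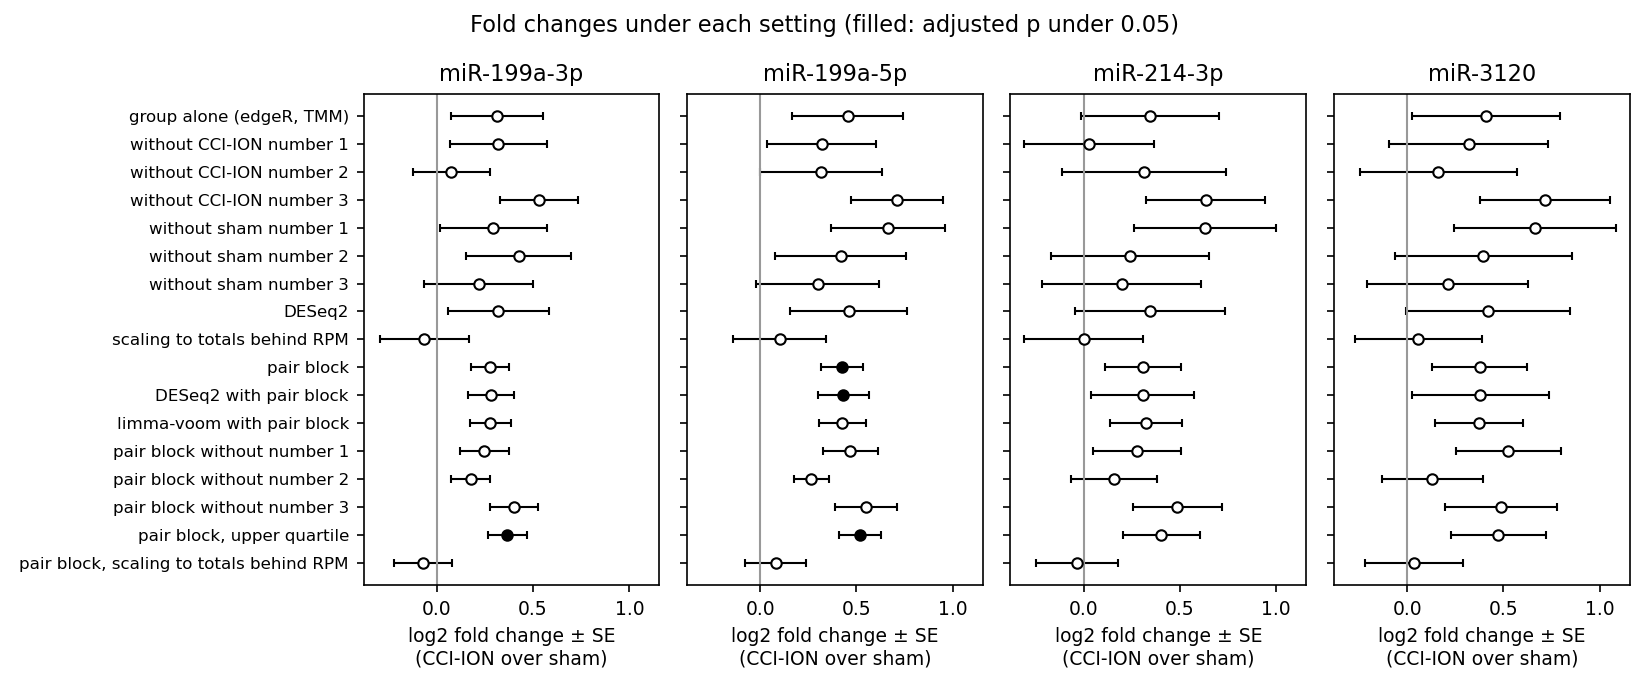
Log2 fold change ± SE (CCI-ION over sham, horizontal axes) of the 4 tested members under each setting listed on the left; "pair block" is the fit with the library number as a block, and filled points have an adjusted p under 0.05. The filled points are miR-199a-5p in 3 settings with the block and miR-199a-3p in 1 of them, and with scaling to the totals behind the RPM all 4 members lie between -0.071 and 0.10.

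Ratios between members within a library do not depend on any scaling. miR-199a-5p amounted to 27.6%, 21.0% and 20.9% of miR-199a-3p in CCI-ION libraries 1 to 3, against 27.3%, 17.3% and 18.7% in sham libraries 1 to 3. The ratio was highest in both libraries numbered 1 and was higher in CCI-ION in 3 of 3 pairs. As log2 ratios, the means were -2.12 ± 0.23 in CCI-ION and -2.27 ± 0.35 in sham, a difference of 0.15 ± 0.24 (SE, n = 3 each, two-sided exact permutation p = 0.5, where 0.1 is the smallest possible).

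The same ratio between strands was taken for 133 hairpins, those with both strands tested under the same stem with -5p and -3p and counted in every library. Strands listed under differing stems, such as miR-129-5p and miR-129-2-3p, were left out. The CCI-ION minus sham difference of miR-199a stood in place 80 of 133 by size, with a median absolute difference of 0.18 over these hairpins. A higher ratio in CCI-ION in 3 of 3 pairs was seen in 19.5% of the 133. Between the 2 libraries numbered 1 and the other 4, the log2 strand ratio of miR-199a differed by 0.50, where the quartiles of the 133 hairpins were -0.33 and 0.34. The part of the larger totals of the libraries numbered 1 in this ratio was not tested.

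miR-214-3p amounted to 0.322%, 0.186% and 0.187% of miR-199a-3p in CCI-ION libraries 1 to 3, against 0.314%, 0.167% and 0.206% in sham libraries 1 to 3. Here too both libraries numbered 1 stood apart from the other 4, and the groups did not (difference in log2 ratio 0.017 ± 0.37, n = 3 each, exact permutation p = 0.9). Set against miR-199a-5p, miR-214-3p was steadier across libraries: 1.17%, 0.888% and 0.893% in CCI-ION libraries and 1.15%, 0.968% and 1.099% in sham libraries. The log2 difference between the groups was -0.13 ± 0.15 (n = 3 each, exact permutation p = 0.4).

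Of the opposite strands of the Mir214 locus, miR-214-3p was read more often than miR-3120 in each library. It was 2.396, 1.52 and 2.00 times as frequent in CCI-ION libraries 1 to 3, against 2.10, 1.77 and 2.29 times in sham libraries 1 to 3. The difference in log2 ratio was -0.077 ± 0.22 (n = 3 each, exact permutation p = 0.7). Together the 5 members held 0.809% ± 0.244 of miRNA counts in CCI-ION and 0.646% ± 0.0925 in sham (SD, n = 3 each, exact permutation p = 0.3). Adjusted over these 5 comparisons, the 4 ratios and the share, the exact permutation p-values were 0.833 to 0.9.

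**Figure D4:**
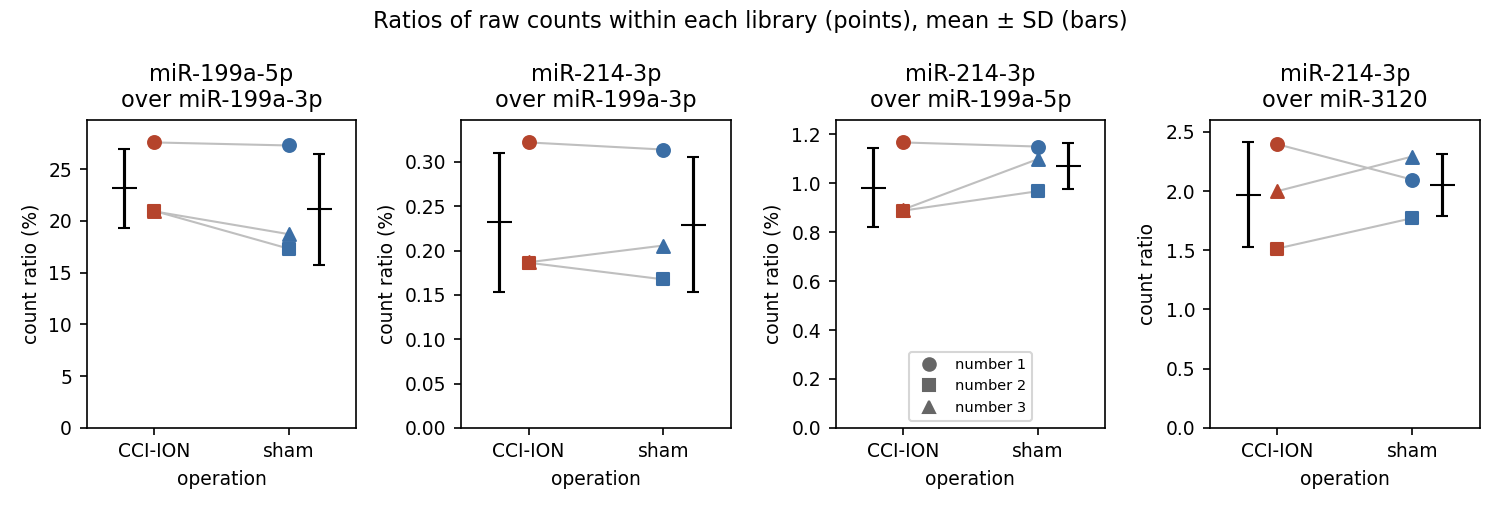
Ratios of raw counts between members within each library (vertical axes, from 0; percent in the first 3 panels, a plain ratio in the last), with CCI-ION on the left and sham on the right of each panel. Points are libraries, grey lines join the same number, and bars are mean ± SD of 3 libraries. In the first 2 panels both libraries numbered 1 lie above the other 4, while the groups overlap in all 4 panels.

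The spread between libraries is set beside the counting error as a description, since separate libraries vary by more than counting. For miR-199a-3p the coefficient of variation was 30.6% in CCI-ION and 14.8% in sham, where counting alone gives 0.429% and 0.414%. For miR-199a-5p it was 31.7% in CCI-ION and 25.1% in sham, against 0.875% and 0.891% from counting. For miR-214-3p it was 40.7% in CCI-ION and 30.9% in sham, against 8.60% and 8.54% from counting. For miR-3120 it was 41.1% in CCI-ION and 30.8% in sham, against 12.3% and 12.2% from counting. Over the 6 libraries the members varied by 1.88-fold (miR-199a-3p), 2.11-fold (miR-199a-5p), 2.42-fold (miR-214-3p) and 2.58-fold (miR-3120).

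Of the 4 tested members, 3 followed each other closely across libraries. Likeness was measured as the root mean square difference of mean-centred log2 CPM over 6 libraries, so a small value means a similar pattern, and it is given as a description. Among 462 other tested miRNAs, the nearest to miR-199a-5p was miR-3120 (0.12), then miR-214-3p (0.16), and the partner strand miR-199a-3p came in place 7 (0.25). The nearest to miR-3120 were miR-199a-5p, miR-214-3p and miR-199a-3p, in places 1 to 3. For miR-214-3p, miR-199a-5p came in place 2 and miR-3120 in place 5, behind miR-345-5p (0.15) as the nearest.

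miR-199a-3p was the exception: from its side miR-199a-5p came in place 18, miR-3120 in place 29 and miR-214-3p in place 156 of 462. The nearest to miR-199a-3p were miR-429 (0.14), miR-130a-5p (0.16) and miR-18a-5p (0.16), with mean levels of 4.79, 2.75 and 2.11 CPM in CCI-ION and 4.49, 1.92 and 1.52 CPM in sham. The nearest to miR-199a-5p that were not members were miR-18a-5p, miR-147 and miR-493-3p (0.23 to 0.24). For miR-214-3p they were miR-345-5p, miR-296-3p and miR-212-5p (0.15 to 0.22), and for miR-3120 miR-18a-5p, miR-455-5p and miR-493-3p (0.29 to 0.31). The profiles share library depth and the library numbers, and the lists for miR-199a-5p and miR-3120 kept 1 of 3 names when RPM was used in place of CPM.

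Other miRNAs of fibroblasts and of mural cells, which wrap vessels, were described for context. Of a list of 12 (miR-143, miR-145, miR-10a, miR-10b and miR-152 strands, miR-195-5p and miR-497-5p), 10 were tested and 0 were called with the groups alone. With the block 1 of the 10 rose, miR-10a-5p, a miRNA of the Hox gene clusters, at 2205 ± 732 CPM in CCI-ION and 1700 ± 447 CPM in sham (log2 fold change 0.35 ± 0.10 with the block, edgeR adjusted p = 0.0113). Over all 463 miRNAs 6.05% were called higher in that fit, so 1 of 10 is near the background. The list median was 0.15 over the 10, with 7 of 10 positive, against 0.01 over all 463. Its most abundant member, miR-143-3p of smooth muscle and mural cells, stood at 22851 ± 6993 CPM in CCI-ION and 23202 ± 4684 CPM in sham (log2 fold change -0.02 ± 0.25, edgeR adjusted p = 0.993).

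Of 8 fibrosis miRNAs (miR-21 and miR-29 strands), 7 were tested, 0 were called with the groups alone, and with the block 1 rose. This was miR-21-5p, widely induced in injured tissue, at 5727 ± 2099 CPM in CCI-ION and 3077 ± 555 CPM in sham (log2 fold change 0.84 ± 0.11 with the block, edgeR adjusted p = 5.63e-08). With 6.05% of all 463 called higher in that fit, nothing is read from 1 of 7 about the list. The list median was -0.07 with 3 of 7 positive. The tested strands of miR-29a, miR-29b and miR-29c, which repress collagens, were not called in either fit.

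Markers of the other cell types in the ganglion are given as summed CPM per list, with no test. In whole tissue, fewer cells of a type and less of an RNA per cell cannot be told apart, nor can the cells that hold the members be named from these data. The sensory neuron markers miR-183-5p, miR-96-5p and miR-182 (3 of 3 detected), which define the tissue, summed to 34692 to 45625 CPM in CCI-ION and 35126 to 44685 CPM in sham. Mural markers (3 of 3 detected) summed to 17783 to 31985 CPM in CCI-ION and 18500 to 27671 CPM in sham, and endothelial markers (2 of 2) to 10952 to 15329 CPM in CCI-ION and 10372 to 14747 CPM in sham. Myelinating glia markers (4 of 4) summed to 5419 to 6249 CPM in CCI-ION and 5263 to 6122 CPM in sham.

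In CPM, the summed markers of leukocytes, erythroid cells and epithelium were higher in CCI-ION in 3 of 3 pairs. Those of other neurons and muscle were lower. Of all 463 tested miRNAs taken singly, 20.1% had a higher CPM in CCI-ION in 3 of 3 pairs. The sums were not taken on the RPM scale, where the median log2 fold change of all 463 was -0.34, so these directions hold for CPM only. Leukocyte markers (5 of 5 detected) summed to 284 to 331 CPM in CCI-ION and 222 to 266 CPM in sham, with no overlap, where 13.8% of all 463 tested miRNAs had none. Erythroid markers (4 of 4) summed to 407 to 799 CPM in CCI-ION and 285 to 771 CPM in sham, and epithelial markers (7 of 7) to 217 to 320 CPM in CCI-ION and 194 to 257 CPM in sham. With the groups alone, log2 fold changes were negative for the erythroid miR-144-3p (-0.42) and the epithelial miR-141-3p (-0.54), miR-200a-3p (-0.06) and miR-200c-3p (-0.08). They were positive for the other markers of both lists, with medians of 0.24 (erythroid) and 0.09 (epithelial). The most abundant epithelial marker, miR-205, averaged 88.3 ± 9.29 CPM in CCI-ION and 56.6 ± 0.467 CPM in sham. Neuronal markers (4 of 4) were lower in CCI-ION in 3 of 3 pairs, at 14143 to 18101 CPM in CCI-ION and 17200 to 20716 CPM in sham. Skeletal muscle markers (5 of 5) were also lower in 3 of 3 pairs, at 3342 to 8419 CPM in CCI-ION and 5198 to 10674 CPM in sham. No marker was at 0 in every library, and the part of these shifts in the miR-199a-5p result was not tested.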

How the data were processed

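The authors deposited raw counts of mature miRNAs and, per library, RPM values. Per the submitters' processing notes, cutadapt 1.14, Bowtie 1.1.1 and the build rn6 were used. Library preparation used a TruSeq RNA kit, per the labels' protocols, which give no read counter, annotation or means of small RNA selection. The deposited RPM equalled the counts times 1 constant per library, with 100% of values whole within 0.01 read. What the total behind the constant counts is not stated.

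Counts of all 650 miRNAs were tested with the edgeR 4.0.16 quasi-likelihood test (R 4.3.3, TMM, filterByExpr, robust), Benjamini-Hochberg adjusted p under 0.05. DESeq2 1.42.0 and limma-voom (limma 3.58.1) were alternatives, as were other scalings and filters and leaving out libraries. Single values used two-sided exact permutation over libraries.

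Titles give both groups the numbers 1 to 3. Deviations of same-numbered libraries correlated at 0.664, 0.591 and 0.457, all over 0.1, so the numbers were taken to pair the libraries. What a number stands for is not given. Libraries with different numbers correlated at -0.614 to 0.167, and CCI-ION library 3 with sham library 2 (0.167) was also over 0.1. The threshold alone therefore does not set same numbers apart, and the pairing was read from the same data that the block tests. The block leaves 2 residual degrees of freedom, against 4 without it, and leans on a shared variance (median prior degrees of freedom 54.5, against 3.30).

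Named miRNAs were the members, miRNAs with a member's seed or near-identical sequence, the 3 nearest profiles per member, called or most abundant members of 2 context lists, and the cell type markers. Members and lists were chosen with earlier results of these data known. RefSeq sequences and positions are in GRCr8, not rn6.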

Additional observations from a re-analysis of the deposited data

How the results depend on the processing

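With groups alone, 3 miRNAs were called. The count was 6 with scaling to the totals behind the RPM, 6 without the filter, 9 with DESeq2, and 6 with limma on log2(RPM + 1) or log2(RPM + 0.1). It was 54 with the replicate block, 44 with DESeq2 and 39 with limma-voom with the block, 60 with the block and upper quartile factors (added after seeing the data) and 158 with the block and scaling to the RPM totals. Without 1 library it was 1 to 7, and with the block it was 45, 31 and 5 without the libraries numbered 1, 2 and 3. miR-199a-5p was past the threshold with the block (log2 fold change 0.43), with DESeq2 with the block (0.43) and with the block and upper quartile factors (0.52), and the last also called miR-199a-3p (0.37, edgeR adjusted p = 0.00384).

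miR-199a-3p turned negative with scaling to the RPM totals (-0.0639), also with the block (-0.0714) and with limma on log2(RPM + 1) or log2(RPM + 0.1) (-0.0715 each). miR-214-3p did so too (-0.00012, -0.0335, -0.0418 and -0.0530), as did the members' share of counts (-0.00934 percentage points). The median of all miRNAs was -0.31 to -0.35 under these scalings. Among the members the block alone changed no call but that of miR-199a-5p.

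Without 1 library, fold changes (log2) ranged from 0.08 to 0.53 for miR-199a-3p, 0.30 to 0.71 for miR-199a-5p, 0.03 to 0.63 for miR-214-3p and 0.16 to 0.72 for miR-3120, none of them called. Differences in log2 ratio ranged from 0.02 to 0.35 (miR-199a-5p over miR-199a-3p), -0.25 to 0.27 (miR-214-3p over miR-199a-3p), -0.26 to -0.07 (miR-214-3p over miR-199a-5p) and -0.23 to 0.10 (miR-214-3p over miR-3120, added after seeing the data), and the difference in share from 0.0605 to 0.298 percentage points. With the block as an exact sign-flip test over 3 pairs, the smallest possible p is 0.25, which the strand ratio of miR-199a and the share reached. For the rare miR-214-3p and miR-3120, counting error limits the ratios.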
